A study of Mus musculus with 20 samples.

Results

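Leukocyte adhesion molecules of the mouse kidney were described here by 7 genes, chosen by their exact gene name on the array: Sele, Selp, Selplg, Icam1, Icam2, Vcam1 and Cd44. They made up 7 of the 27827 gene names of the array and were read by 14 of its 41174 probes. The series measured whole-kidney RNA from isogenic male C57BL/6 mice, 8 to 12 weeks old, on 20 one-colour arrays in 5 groups of 4. Control kidneys had no surgery, and neither a sham-operated nor a vehicle-treated group was described. IRI kidneys had 45 min of ischemia with both renal pedicles clamped, followed by 6 h of reperfusion. IRI+Hemin kidneys had the same injury after hemin, an inducer of heme oxygenase, at 25 mg/kg given 24 h before. IPC+IRI kidneys had the same injury after ischemic preconditioning, 15 min of ischemia 7 days earlier. Hemin kidneys received 25 mg/kg hemin and no ischemia. The labels number the arrays of a group without naming separate animals, so p-values measure the spread between these arrays, which may in part be technical.

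Leukocytes leave the blood in steps. The selectins on activated endothelium, E-selectin (Sele) and P-selectin (Selp), catch passing leukocytes by sugar-bearing ligands such as PSGL-1 (Selplg), and the cells roll. Firm arrest follows when leukocyte integrins bind members of the immunoglobulin family on the vessel wall, ICAM-1 (Icam1), ICAM-2 (Icam2) and VCAM-1 (Vcam1). CD44 (Cd44) is the receptor for hyaluronan and is carried by leukocytes, endothelium and injured tubular epithelium. In kidneys after ischemia these molecules are known for the recruitment of neutrophils and monocytes.

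Values are log2 expression, the log2 of a gene's processed signal over the 75th percentile of its array, so that 0 is the 75th percentile and 1 unit is a doubling. A probe was well above background where the scanner software marked it so, and a difference was called where limma's adjusted p, by Benjamini-Hochberg over all genes tested, was below 0.05. The 75th percentile lay between 146.7 and 357.9 intensity units, and 57.4% to 67.4% of gene names were well above background on an array. The arrays of a group shared 1 slide that held no other group, and the effect of a slide cannot be told apart from that of its group. The arrays were scanned on 3 days, Control and IRI on the first, IRI+Hemin on the second, and IPC+IRI and Hemin on the third, so that of the comparisons below only IRI vs Control lies within 1 day. The summed level of 8 kidney markers was 8.42 to 9.02 on all arrays, and all 8 were measured well enough to be tested. In whole tissue, fewer cells of a type and less RNA per cell cannot be told apart.

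Sele was the dimmest of the adhesion molecules and rose above background mainly in IRI. Its log2 expression was -6.28, -6.37, -6.65 and -6.67 in Control, where no array was well above background. In IRI it was -3.48, -3.44, -5.84 and -3.30, with replicate 3 the array that was not well above background. In IRI+Hemin it was -4.92, -5.62, -5.74 and -5.46, in IPC+IRI -7.04, -4.46, -6.86 and -5.79, and in Hemin -5.65, -7.00, -7.26 and -6.77. Only IRI+Hemin replicate 1 and IPC+IRI replicate 2 of these 12 arrays were well above background. All 4 IRI values were above all 4 Control values, whereas the IRI group overlapped both pretreated injured groups through its replicate 3.

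Selp was well above background on all 20 arrays and was highest in IRI. It measured -2.87, -3.56, -3.84 and -3.92 in Control and -2.65, -2.62, -3.84 and -2.95 in IRI. It measured -4.53, -3.57, -4.89 and -4.44 in IRI+Hemin, -4.27, -2.97, -3.82 and -3.45 in IPC+IRI and -3.86, -4.01, -3.83 and -3.98 in Hemin. The groups formed a ladder from IRI+Hemin (mean -4.36) over Hemin, IPC+IRI and Control to IRI (mean -3.01), and each neighbour on it overlapped the next. Selplg, the leukocyte ligand of the selectins, measured -1.70, -2.16, -2.01 and -1.91 in Control, -1.33, -1.61, -1.52 and -1.46 in IRI, and -1.90, -1.47, -1.94 and -1.80 in IRI+Hemin. It measured -2.59, -1.09, -0.82 and -1.45 in IPC+IRI and -2.68, -2.41, -2.29 and -2.15 in Hemin. IPC+IRI spanned more than the other groups, with replicate 1 below and replicate 3 above every other injured kidney.

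Icam1 split injured from uninjured kidneys. It measured 0.25, 0.15, 0.21 and 0.13 in Control and 0.54, 0.53, 0.65 and 0.58 in Hemin. It measured 2.36, 2.89, 2.28 and 2.11 in IRI, 2.89, 2.19, 2.55 and 2.47 in IRI+Hemin, and 1.80, 2.45, 2.74 and 1.91 in IPC+IRI. Every injured kidney was above every uninjured one, every Hemin kidney was above every Control kidney, and the 3 injured groups overlapped. Icam2, which endothelium carries without stimulation, measured 0.85, 1.33, 0.85 and 1.13 in Control and 1.36, 1.32, 1.33 and 1.77 in Hemin. It measured 0.76, 0.54, 0.76 and 0.57 in IRI, 0.97, -0.55, 0.75 and -0.06 in IRI+Hemin and 0.24, 0.61, 0.80 and 0.52 in IPC+IRI. All IRI and IPC+IRI kidneys were below all Control kidneys, and IRI+Hemin was spread from below all of these into the Control range.

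Vcam1 measured -2.24, -2.09, -2.36 and -2.29 in Control and -2.57, -2.77, -1.60 and -2.28 in Hemin. For Hemin replicate 3 the spot of a dim Vcam1 probe was left out, so that its gene value is a mean over fewer probes. Vcam1 measured -0.18, -0.12, -0.49 and -0.22 in IRI, -0.95, -1.27, -1.33 and -0.91 in IRI+Hemin, and -1.29, -0.43, 1.18 and -0.56 in IPC+IRI. Injured and uninjured kidneys did not overlap, all IRI+Hemin kidneys lay between Control and IRI, and IPC+IRI spread to both sides of IRI. Cd44 measured -3.35, -2.98, -3.50 and -3.38 in Control and -3.57, -3.59, -3.49 and -3.56 in Hemin. It measured -0.97, -1.40, -1.27 and -1.11 in IRI, -2.26, -1.38, -2.33 and -1.96 in IRI+Hemin, and -2.10, -0.66, -0.03 and -0.89 in IPC+IRI. The split between injured and uninjured kidneys was again complete, and IRI+Hemin overlapped IRI by its replicate 2 alone.

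**Figure D1:**
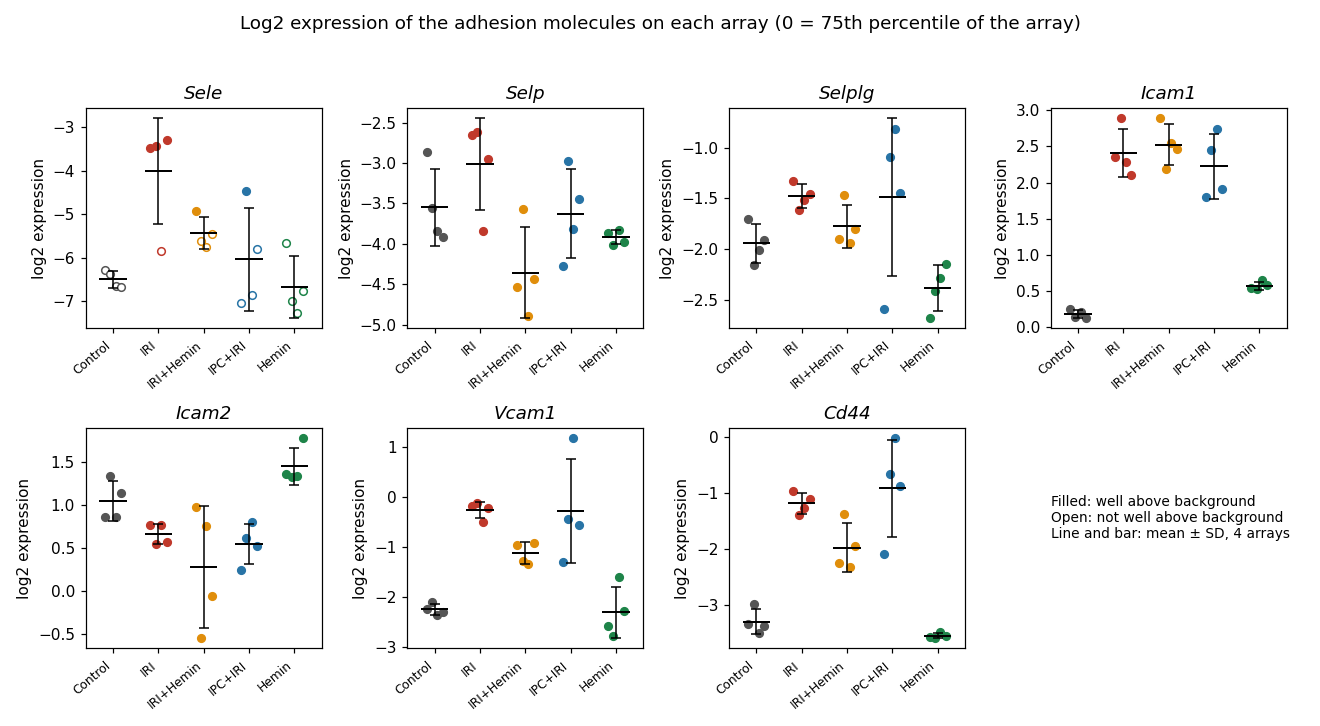
Log2 expression of the 7 adhesion molecules (y axes, log2 of signal over the 75th percentile of the array) in the 5 groups (x axes), with points for the 4 arrays of a group and the line and bar for mean ± SD. Icam1, Vcam1 and Cd44 split injured from uninjured kidneys, Sele is high on 3 of the 4 IRI arrays, and IPC+IRI is widely spread in Vcam1 (-1.29 to 1.18) and Cd44 (-2.10 to -0.03).

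IRI vs Control asks what ischemia and 6 h of reperfusion did to the kidney. Sele, Icam1, Vcam1 and Cd44 were up-regulated in whole-kidney RNA, and which cells carried the rise was not tested. That is 4 of 7 members higher and 0 lower, where 17.0% of the 17719 genes tested were called higher and 33.7% lower. The median over the members was 1.99 on the log2 scale, or 1.38 with Sele at its bound, beside -0.17 over all genes tested. Icam1 rose 4.67-fold, from 0.19 ± 0.05 to 2.41 ± 0.34 (SD, n = 4), with an adjusted p of 1.31e-07 in limma. Cd44 rose 4.33-fold, from -3.30 ± 0.22 to -1.19 ± 0.18 (limma, adjusted p = 2.07e-05). Vcam1 rose 3.97-fold, from -2.24 ± 0.12 to -0.25 ± 0.16 (limma, adjusted p = 0.000174). Because no Control array was well above background for Sele, its fold is a bound: at least 2.6-fold higher in IRI, with measured means of -6.49 ± 0.20 and -4.01 ± 1.22 (limma, adjusted p = 0.0012). With 1 array left out at a time, its measured log2 difference ran from 2.24 to 3.09 (limma, adjusted p up to 0.00566).

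The other members did not pass the test in IRI vs Control. Selplg differed by 0.47 ± 0.26 (SE, adjusted p = 0.145) and Icam2 by -0.38 ± 0.25 (adjusted p = 0.206). Both pairs of groups were free of overlap, for which the exact permutation test gives p = 0.029, the smallest that 4 against 4 arrays allow. Selp, stored ready-made in platelets and endothelium, differed by 0.53 ± 0.32 with a 95% interval of -0.14 to 1.21. Sele lost its call under normexp background correction (0.50, adjusted p = 0.116) and by SAM, the test named in the study's methods, which called the other 3. Selp passed without IRI replicate 3 (0.81, adjusted p = 0.0416) and, like Selplg, under quantile normalization, and Selplg passed without IPC+IRI replicate 1 (adjusted p = 0.0167) or with the compared arrays alone (0.0174).

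**Figure D2:**
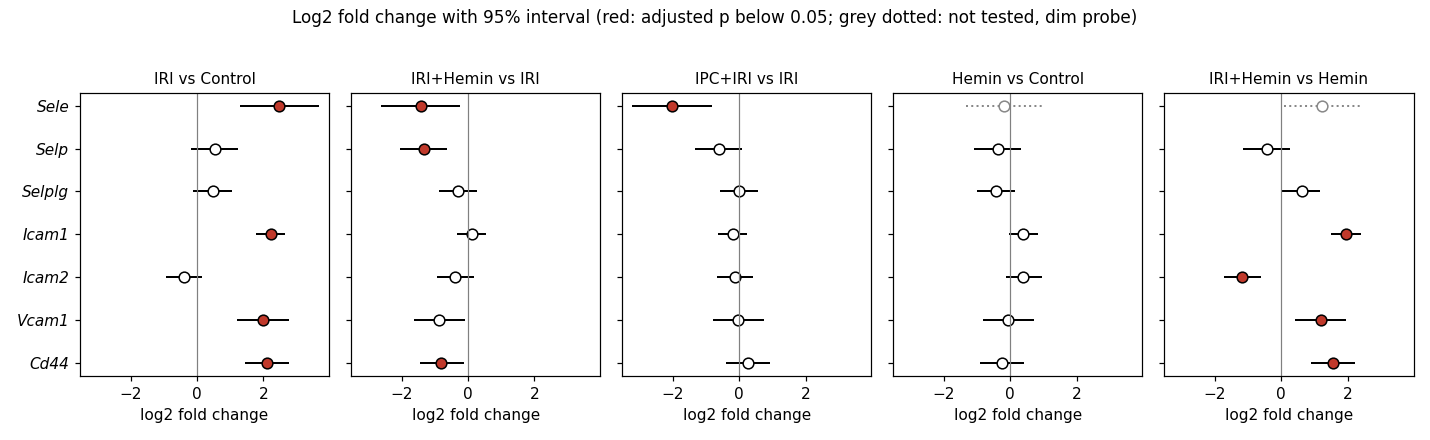
Log2 fold change of each adhesion molecule (x axes) with its 95% interval from the limma fit over all 20 arrays, in the comparisons named above the panels. In IRI vs Control, Icam1 (2.22), Cd44 (2.11), Vcam1 (1.99) and Sele (2.48 as measured) lie above 0, and in IRI+Hemin vs IRI, Selp (-1.34) and Sele (-1.42) lie below it.

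IRI+Hemin vs IRI asks what hemin given beforehand changed in the injured kidney. Both selectins, Sele and Selp, and Cd44 were lower after hemin, and Icam1 did not pass the test. Of 7 members tested, 3 were lower and 0 higher, where 18.0% of 17835 genes were called lower and 26.1% higher, and the median over the members was -0.80 beside 0.08 over all genes. Selp was 2.54-fold lower, at -4.36 ± 0.56 against -3.01 ± 0.57 (limma, adjusted p = 0.00278). Sele was 2.68-fold lower by its measured means, -5.43 ± 0.36 with 1 array well above background against -4.01 ± 1.22 (limma, adjusted p = 0.0446). With 1 array left out at a time, its log2 difference ran from -2.03 to -1.18 (limma, adjusted p from 0.00319 to 0.122). Cd44 was 1.74-fold lower, at -1.98 ± 0.43 against -1.19 ± 0.18 (limma, adjusted p = 0.0395). The groups overlapped for all 3 of them, and the exact permutation test gave p = 0.057 for Selp, 0.143 for Sele and 0.057 for Cd44.

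Vcam1 differed by -0.86 ± 0.35 between IRI+Hemin and IRI (limma, adjusted p = 0.057), with no overlap of the groups. Icam1 differed by 0.11, with a 95% interval of -0.30 to 0.52, Icam2 by -0.38 (-0.90 to 0.14) and Selplg by -0.30 (-0.84 to 0.25). The Selp call held whichever single array was left out. Cd44 lost its call without IRI replicate 1, 3 or 4 or without IRI+Hemin replicate 1, 3 or 4, with adjusted p between 0.0608 and 0.104. It also lost it under normexp (-0.53, adjusted p = 0.0743) and with the mean of log2 values over its probes (-0.50, 0.0621). Sele lost its call without IRI replicate 1, 2 or 4, IRI+Hemin replicate 2, 3 or 4, IPC+IRI replicate 4, Hemin replicate 2 or 4, or any Control array, with adjusted p up to 0.122, and also with no filter on dim genes (0.0525) and with the compared arrays alone (0.0658). Vcam1 passed without IPC+IRI replicate 1 (adjusted p = 0.0286) or 3 (0.00476) or Hemin replicate 3 (0.0485), with the compared arrays alone (0.00263) and with the brightest probe (0.0182), and Icam2 passed without IRI+Hemin replicate 1 (-0.61, adjusted p = 0.0419). With the arrays left unscaled, the median of all genes in this comparison moved from 0.08 to 0.45 and no member was called, with Selp at -0.98 (adjusted p = 0.0533). SAM called no member here either.

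IPC+IRI vs IRI asks the same of ischemic preconditioning. Sele was lower in the preconditioned injured kidneys, at -6.04 ± 1.19 against -4.01 ± 1.22 (limma, adjusted p = 0.00689; exact permutation test, p = 0.086). Only 1 of the 4 IPC+IRI arrays was well above background, so the 4.06-fold between these means rests largely on signals at background. With 1 array left out at a time, the log2 difference ran from -2.63 to -1.69 (limma, adjusted p from 0.000551 to 0.0274). The call was lost with the compared arrays alone (adjusted p = 0.052) and by SAM, and a strict filter, well above background on all arrays of both groups, left Sele untested here as in the other comparisons. It was the 1 member called lower, and 0 were higher, where 17.7% of 17668 genes were called lower and 26.0% higher. The median over the members was -0.12 beside 0.09 over all genes. Selp differed by -0.61 (95% interval -1.29 to 0.06), Icam1 by -0.19 (-0.60 to 0.22) and Icam2 by -0.12 (-0.63 to 0.40). The interval was -0.76 to 0.72 for Vcam1, -0.37 to 0.90 for Cd44 and -0.56 to 0.54 for Selplg.

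These intervals rest on a group that was itself spread. IPC+IRI replicate 1 had the lowest value of its group for all 7 members, and replicate 3 the highest for all but Sele and Selp. Replicate 1 also had the lowest summed level of the group for the 3 pan-leukocyte markers (-0.27), the 6 macrophage markers (1.40), the 12 endothelial markers (4.73) and the 16 endothelial activators (4.41), and replicate 3 the highest for the leukocyte markers (1.56). The part of cell content in the spread of the members was not tested. Without IPC+IRI replicate 1, Cd44 was higher in IPC+IRI than in IRI by 0.66 (limma, adjusted p = 0.0239), and without IRI replicate 3, Selp was lower, at -0.89 (adjusted p = 0.0326).

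Against Control, preconditioned injured kidneys had Icam1 higher by 2.04, Cd44 by 2.38 and Vcam1 by 1.97 (limma, adjusted p = 3.61e-07, 5.87e-06 and 0.000162). These were 3 of 6 members tested, where 23.1% of 18352 genes were called higher and 32.6% lower, and 0 members were lower. Sele was not tested here, since neither group had enough arrays well above background. IRI+Hemin vs Control called 3 of 6 members higher and 2 lower, where 24.3% of 18489 genes were higher and 33.1% lower. Icam1 was higher by 2.34 (adjusted p = 7.8e-08), Cd44 by 1.32 (0.00125) and Vcam1 by 1.13 (0.0112). Icam2 was lower, at -0.76 (adjusted p = 0.0132), and so was Selp, at -0.81 (0.0392). The Icam2 call was lost without IRI+Hemin replicate 2 (-0.49, adjusted p = 0.0572), without scaling (-0.28, 0.528) and with the compared arrays alone (0.0759). The Selp call was lost without Control replicate 1 or 2 or IRI+Hemin replicate 1, 3 or 4, with adjusted p between 0.0607 and 0.143. It was also lost under normexp (adjusted p = 0.087), without scaling (0.516), under quantile normalization (0.168), with the brightest probe (0.0524), with the mean of log2 values (0.111) and with the compared arrays alone (0.0616). SAM called Icam1 and Vcam1 only. Under normexp, Cd44 (0.38, adjusted p = 0.186) and Vcam1 (0.59, 0.088) were not called, nor was Vcam1 with the outlying spots kept (0.244). In the deposited matrix, Selp was called lower in IPC+IRI vs Control (-0.78, adjusted p = 0.0149, beside -0.08 here) and in IPC+IRI vs IRI (-1.03, adjusted p = 0.00389), the latter also with the brightest probe (-0.81, 0.0312). In IPC+IRI vs Control, Selplg passed without IPC+IRI replicate 1 (0.82, adjusted p = 0.000507), without scaling (0.0412) and under quantile normalization (0.0456). Icam2 passed there as lower without IRI+Hemin replicate 2 (-0.50, adjusted p = 0.0364), when scaled by the probes well above background (0.0421) and with the compared arrays alone (0.0339). SAM called 1 member in place of 3. These comparisons share the Control arrays with IRI vs Control.

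Hemin vs Control asks what hemin did without injury. Of 6 members tested, limma called 0, where 18.4% of 18579 genes were called higher and 17.5% lower. No member had an unadjusted p below 0.05, and SAM called 0 as well. Icam1 differed by 0.39 ± 0.20 (SE, limma, adjusted p = 0.128), with Hemin at 0.57 ± 0.06 and Control at 0.19 ± 0.05 and no overlap. Icam2 differed by 0.40, with an interval of -0.11 to 0.92, Selplg by -0.44 (-0.98 to 0.11), and Cd44 by -0.25 (-0.88 to 0.38). Selp differed by -0.37 (-1.05 to 0.31), and its repeatedly spotted probe by -0.64 with no overlap (adjusted p = 0.0935). Selp was called lower in the deposited matrix (-0.98, adjusted p = 0.00685), and Icam1 higher with the compared arrays alone (0.39, adjusted p = 0.00795). Without scaling, Icam1 (0.95, adjusted p = 0.0118) and Icam2 (0.97, 0.0276) were called, and the median of all genes was 0.62. Selplg passed as lower without IPC+IRI replicate 1, which enters only through the shared spread (adjusted p = 0.0324), and with the compared arrays alone (0.0408). Vcam1 differed by -0.06 (-0.80 to 0.68), or by 0.99 (adjusted p = 0.361) when the outlying spot of Hemin replicate 3 was kept.

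Among hemin-treated mice, IRI+Hemin vs Hemin called 3 of 6 members higher and 1 lower, where 16.4% of 18634 genes were called higher and 27.8% lower. Icam1 was higher by 1.95 (limma, adjusted p = 9.95e-07), Cd44 by 1.57 (0.000504) and Vcam1 by 1.19 (0.0115). Icam2 was 2.25-fold lower (limma, adjusted p = 0.00106), at 0.28 ± 0.71 against 1.44 ± 0.22, with no overlap. Selplg differed by 0.61 (adjusted p = 0.0665, no overlap) and passed without IPC+IRI replicate 1 (adjusted p = 0.00402) or 3 (0.0433), with the compared arrays alone (0.0115) and under quantile normalization (0.0337). SAM called Icam1 and Cd44 only. Vcam1 was no longer called when the outlying spot of Hemin replicate 3 was kept (0.14, adjusted p = 0.901). Whether the injury moved a gene differently with and without hemin was tested as an interaction, and 0 of 7 members were called, where 5.83% of 19064 genes were called higher and 1.95% lower. At an unadjusted p below 0.05 there were 2 members, Icam2 at -0.79 (limma, adjusted p = 0.189) and Selp at -0.97 (adjusted p = 0.215).

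The probes of a member did not always move alike, and their sequences show what each read. They are given 5′ to 3′ as deposited, with their place in mm9 from the scanner files, which do not name the exon. The Icam1 probes start 896 bases apart on chromosome 9 (+ strand). The last 30 bases of A_51_P408506 (chr9:20833186-20833245) hold the polyadenylation signal, in capitals. A_52_P613241 (chr9:20832290-20832349) lies upstream of it and is shown whole, all in lower case.
A_51_P408506: agaaacctttcctttgaatcAATAAAgttt
A_52_P613241: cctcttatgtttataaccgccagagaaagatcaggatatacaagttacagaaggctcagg
In IRI vs Control they rose by 2.22 ± 0.21 and 2.26 ± 0.28 (SE). Both were among the 17.6% of 25952 probes called higher in that comparison, where 30.7% were lower. In IRI+Hemin vs IRI they differed by 0.19 (95% interval -0.24 to 0.63) at the 3′ probe and by -0.56 (-1.15 to 0.04) at the upstream one.

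Vcam1 was read by a bright probe, A_51_P210956 (chr3:115813216-115813275, - strand), and by A_52_P520495 (chr3:115828953-115829012), whose start lies 15737 bases away. The first 30 bases of the bright probe and the whole of the other are shown because their measured folds differed.
A_51_P210956: tatatttttataggcaaatggtaaagaggt
A_52_P520495: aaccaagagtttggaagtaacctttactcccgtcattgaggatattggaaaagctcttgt
The bright probe was higher in IRI than in Control by 1.90 ± 0.32 (limma over all probes, adjusted p = 0.000112). The other probe was not well above background on any Control or Hemin array and was so on all 12 injured arrays. It was at least 8.39-fold higher in IRI than in Control, with measured means of -1.85 ± 0.54 and -4.95 ± 0.25. Against Control it was at least 9.55-fold higher in IPC+IRI and at least 7.29-fold higher in IRI+Hemin. In IRI+Hemin vs IRI the bright probe was lower, at -0.99 (adjusted p = 0.0172, no overlap of the groups), whereas the other differed by -0.20 (-1.33 to 0.92). The third Vcam1 probe, A_52_P462332, was never well above background.

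Cd44 was read by 3 probes on the minus strand of chromosome 2. A_52_P229536 (chr2:102652907-102652966) and A_52_P523459 (chr2:102651667-102651726) start 1240 bases apart, and the files list both under the same 3 RefSeq transcripts. A_51_P407053 (chr2:102674420-102674479) starts 21513 bases from the former, and the files list it under NM_009851 and NM_001039150 but not under NM_001039151. The first 30 bases of the former pair and the whole of the latter are shown, in lower case, because the former pair moved unequally and the latter was dim.
A_52_P229536: cactgggatcttatcatcagataagcaggt
A_52_P523459: gccaattgcttaggtatgtacaatgagttt
A_51_P407053: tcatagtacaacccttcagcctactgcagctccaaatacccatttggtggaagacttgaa
In IRI vs Control the first of them was higher by 2.25 and the second by 2.66. In IRI+Hemin vs IRI the second was lower, at -1.93 (limma over all probes, adjusted p = 0.000113), among the 19.9% of 26485 probes called lower (26.7% were higher), whereas the first differed by -0.53 (adjusted p = 0.172). In Hemin vs Control the second was lower as well, at -1.01 (adjusted p = 0.0186; 18.3% of 27307 probes were lower and 17.8% higher), and the first differed by 0.01. In Hemin, 2 of the 4 arrays and 9 of the 38 spots of A_52_P523459 were well above background, beside all 4 arrays and 34 of 38 spots in Control. The call of Cd44 in IRI+Hemin vs IRI was lost with the brightest probe alone (-0.53, adjusted p = 0.177). A_51_P407053 was well above background on 1 Control and 1 IRI+Hemin array only, with group means of -4.32 ± 0.38 in Control and -6.25 ± 0.30 in IRI.

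**Figure D3:**
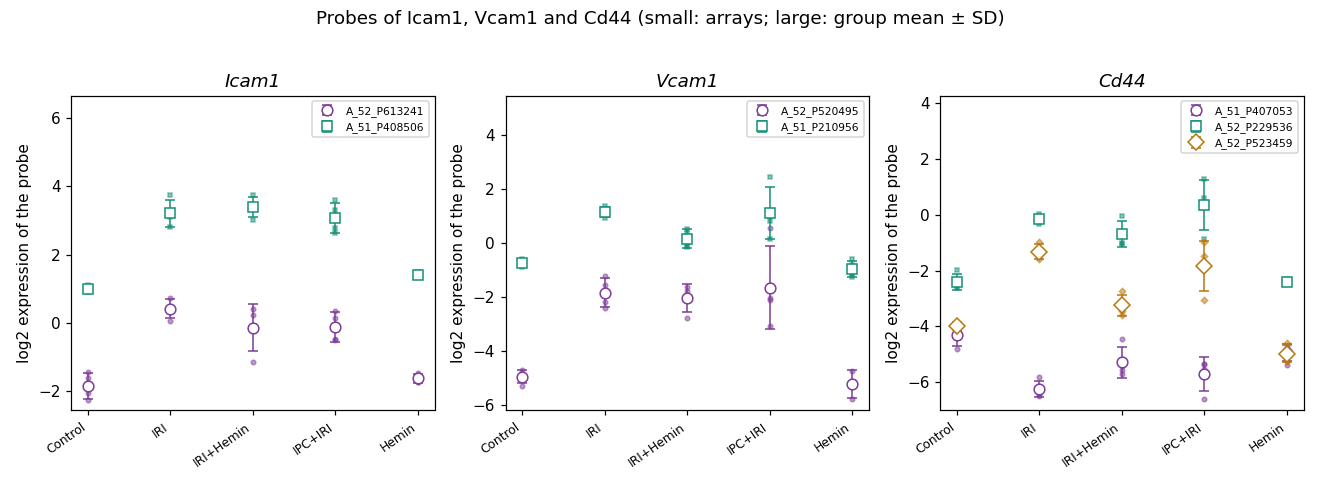
Log2 expression of single probes of Icam1, Vcam1 and Cd44 (y axes, log2 of signal over the 75th percentile of the array) in the 5 groups (x axes), with small symbols for arrays and large ones with bars for mean ± SD. The Cd44 probe A_52_P523459 is at -3.24 in IRI+Hemin and -1.32 in IRI, and at -4.99 in Hemin and -3.98 in Control, while A_52_P229536 is at -2.39 in Hemin and -2.40 in Control.

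The ratio between the Cd44 probes A_52_P523459 and A_52_P229536 on an array was examined after its values were seen. Its log2 was -1.58 ± 0.30 in Control and -1.17 ± 0.11 in IRI, but -2.19 ± 0.09 in IPC+IRI, -2.56 ± 0.11 in IRI+Hemin and -2.60 ± 0.27 in Hemin (SD, n = 4). The lowest of the 8 Control and IRI arrays was -2.01 and the highest of the 12 others -2.07. The exact permutation test gave p = 0.029 (0.0902 after adjustment over the 28 ratio tests made for the members) in 6 of the 7 comparisons between groups, all but IRI+Hemin vs Hemin. The 6 include IRI vs Control, within 1 scan day, where the ratio differed by 0.41. In Hemin the ratio rests on a signal largely at background. The arrays with the higher ratio are those scanned on the first day, so the scan day and the treatments cannot be told apart in the ratio's difference between these arrays and the rest. The call of Cd44 as lower in IRI+Hemin vs IRI was seen at A_52_P523459 and not at A_52_P229536.

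**Figure D4:**
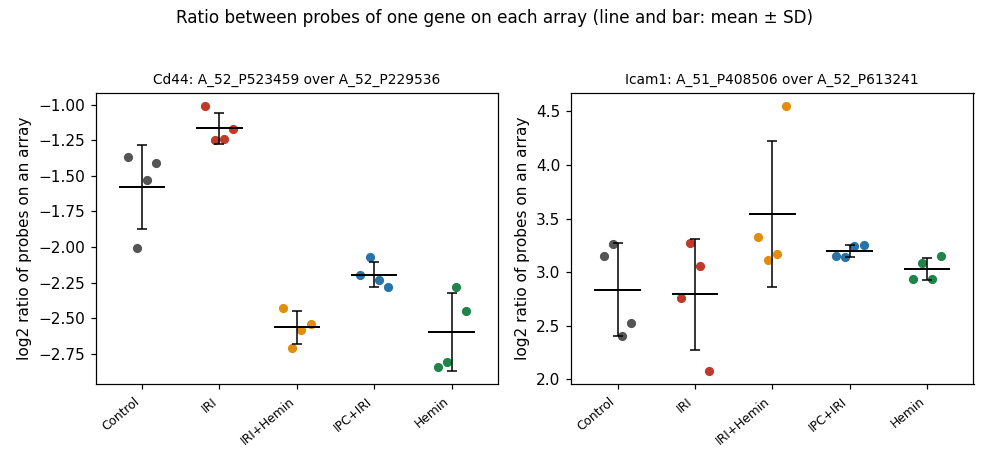
Log2 ratio of the signals of a pair of probes of Cd44 (left) and Icam1 (right) on each array (y axes) in the 5 groups (x axes), with points for arrays and line and bar for mean ± SD. For Cd44, Control and IRI (-2.01 to -1.01) lie above the other groups (-2.84 to -2.07), and for Icam1 the groups overlap between 2.08 and 4.55.

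Selp was read by A_51_P211854 (chr1:166079660-166079719, + strand), spotted 10 times on the array, and by a dimmer probe that was well above background on 8 arrays. The first 30 bases of the former are shown beside those of the only Sele probe (chr1:165987726-165987785, + strand), since the differences of both selectins rest on them.
A_51_P211854: atgcctgctttaagatctcctgggtcttcc
A_51_P455326: gagtatttaacggtagctggttttaagaca
The repeatedly spotted Selp probe was -2.24 ± 0.52 in IRI and -3.55 ± 0.49 in IRI+Hemin, a difference of -1.32 (limma over all probes, adjusted p = 0.00136). In IPC+IRI vs IRI it was lower as well, at -0.81 (adjusted p = 0.0297), which the gene mean did not pass.

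The genes around the members were read from lists of the adhesion pathway. Their counts in IRI vs Control stand beside 17.0% of all genes called higher and 33.7% called lower. Of 9 tested ligands and integrins that pair with the members (integrin chains, sialomucins and CD24), 2 were higher in IRI vs Control and 0 lower, with a median of -0.24. Cd24a, a ligand of P-selectin, was higher by 1.11. Its mean in Control was 3.47, beside -2.87 for the pan-leukocyte marker Ptprc. Which kidney cells carried these genes was not tested. Of 12 tested genes of endothelial junctions and transmigration, 5 were higher and 3 lower (median 0.48). The higher ones included Mcam (1.51), VE-cadherin Cdh5 (1.39), Jam2 (1.27) and Esam (1.08). Of 11 tested enzymes that build selectin ligands, 4 were higher and 2 lower (median 0.33).

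Around Cd44, 5 of 10 tested genes of hyaluronan and other CD44 partners were higher in IRI and 2 lower (median 0.60). They included the cytoskeletal linker Ezr (1.47) and the hyaluronan receptor Lyve1 (1.34, with 1 Control array well above background). No Control array was well above background for the hyaluronan synthase Has1, at least 2.23-fold higher in IRI, or for the hyaluronan-binding protein Tnfaip6, with a bound of at least 2.25-fold. Of 13 tested cytokines, receptors and NF-κB subunits known to induce endothelial adhesion molecules, 9 were higher and 1 lower, with a median of 0.84. Il6 was well above background on no Control array and was at least 24.3-fold higher in IRI (measured means -0.79 and -6.64). Relb was higher by 2.51 on the log2 scale, Il1b by 1.97, Rela by 1.84, Nfkb2 by 1.76 and the interleukin-1 receptor Il1r1 by 1.53. Il4, on no IRI array well above background, was at least 1.44-fold lower.

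In IRI+Hemin vs IRI, 4 of 13 tested activators were lower and 1 higher (median -0.03), where 18.0% of all genes were lower and 26.1% higher. The tested genes were not all those of IRI vs Control, since Lta was tested in place of Il4. The lower ones were Il6 (-1.81), Il1b (-1.40), Tnf (-0.95) and Il1r1 (-0.73), and the higher one was Lta, at least 1.56-fold, with no IRI array well above background. Tnf was not among the genes raised in IRI, with means of -4.41 in Control, -4.54 in IRI and -5.08 in Hemin. The NF-κB subunits Relb and Rela differed by 0.10 and -0.03 there. Of 12 tested junction genes, 4 were lower and 3 higher (median -0.15), with Cdh5 at -1.30. Of 9 tested CD44 partners 3 were lower and 2 higher (median 0.01). Tnfaip6, on no IRI+Hemin array well above background, was at least 5.12-fold lower. Msn (-1.64) and Rdx (-0.80) were lower too, and the higher ones were Hyal1 (2.44) and Hyal2 (0.95). In IPC+IRI vs IRI, 3 of 13 tested activators were lower and 1 higher (median -0.05), and of 12 tested junction genes 3 were lower and 2 higher (median -0.24). Of all genes there, 17.7% were called lower and 26.0% higher.

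Markers of the cells that carry the members moved with some groups. The summed level of the 12 endothelial markers was 5.51 to 5.80 in Control, 5.63 to 5.84 in IRI, 5.87 to 6.05 in IRI+Hemin, 4.73 to 5.88 in IPC+IRI and 5.58 to 6.04 in Hemin. In IRI+Hemin vs IRI, where Selp and Sele were lower, 5 of the 12 endothelial markers were higher and 0 lower. In IPC+IRI vs IRI, 5 of the 12 were lower and 1 higher, where 17.7% of all genes were lower and 26.0% higher. In IRI vs Control 4 of the 12 were lower, where 33.7% of all genes were, namely Ehd3 (-1.21), Tek (-0.97), Ramp2 (-0.86) and Kdr (-0.44), and 1 was higher, Robo4 (1.20).

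The 3 pan-leukocyte markers summed to 0.37 to 0.47 in Control and 0.34 to 0.77 in IRI, and 0 of 3 were called in IRI vs Control. The 9 neutrophil markers summed to -1.60 to -0.67 in Control and 1.34 to 3.06 in IRI. Only 2 of the 9 could be tested in IRI vs Control, and both were higher, S100a8 by 4.05 and S100a9 by 3.68. The sum is carried by these 2, and of the untested ones Mmp8 differed by 2.59, Csf3r by 1.39, Il8rb by 0.18 and Ltf by -0.25. The means in Control and IRI were -6.17 and -4.87 for Ngp, -6.85 and -6.32 for Camp, and -6.02 and -5.86 for Mmp9. The 6 macrophage markers summed to 1.67 to 1.90 in Control and 1.99 to 2.42 in IRI. Of these, 1 of 6 was higher, Cd68 (2.23), where 17.0% of all genes were called higher. Of 8 lymphocyte markers 3 were lower and 0 higher, where 33.7% of all genes were called lower and 17.0% higher. Their sum was -0.34 to -0.06 in Control and -0.84 to -0.65 in IRI. Of 4 platelet markers tested, 2 were higher, Pf4 (1.44) and Ppbp (1.03), and the sum of 5 was -1.62 to -0.35 in Control and -0.24 to 0.22 in IRI. The part of cell content in the differences of Sele, Icam1, Vcam1, Cd44 and Selp was not tested.

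**Figure D5:**
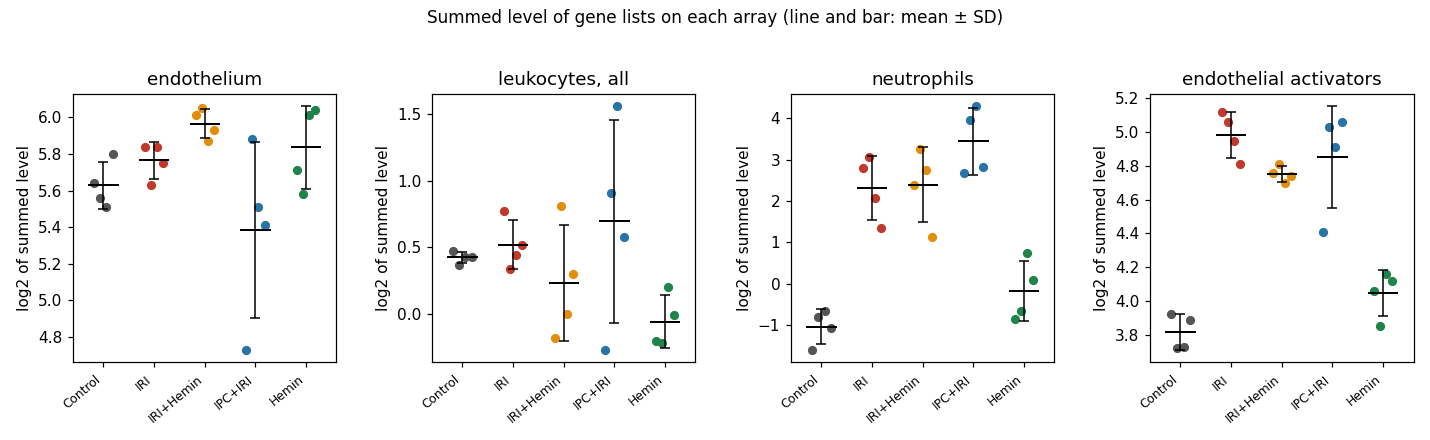
Log2 of the summed level of endothelial, pan-leukocyte and neutrophil markers and of endothelial activators (y axes) on each array in the 5 groups (x axes), with line and bar for mean ± SD. The neutrophil sum, carried mainly by S100a8 and S100a9, and the activator sum are higher in the injured groups, IRI+Hemin has the highest endothelial sum (5.87 to 6.05), and IPC+IRI replicate 1 is the lowest array for endothelium (4.73).

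The gene names most like each member were read by Pearson's r of log2 expression over the 20 arrays, among 19128 candidates, as a description. The arrays share their groups and slides, so a high r can come from the group means alone. Icam1 was most like Ell (0.981), Sox9 (0.974) and Bcl3 (0.972). Vcam1 was most like H2-gs10 (0.949), the transcript BQ951674 (0.941) and Cd44 (0.94). Cd44 was most like Timp1 (0.953), Pik3r5 (0.949) and H2-gs10 (0.948). Selplg was most like Fcgr3 (0.928), Itgb2 (0.912) and H2-Aa (0.907). Icam2 was most like Fam113a (0.91), Zfp768 (0.9) and Fhod1 (0.897), and Sele most like Prss27 (0.892), Ppm2c (0.855) and Sft2d2 (0.848). Selp had the lowest values, with Pqlc3 (0.827), Csf2rb (0.813) and Slc44a1 (0.796).

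RefSeq promoters were at hand for Sele, Selp, Icam1 and Cd44. The NF-κB consensus motif, searched on both strands in the 250 bases before the start, was in 0 of these 4 and in 3.9% of all 32851 promoters. In the whole window of 300 bases it was again in 0 of 4, and in 4.51% of all. This says only that these letters are not in these windows.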

How the data were processed

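Total RNA of whole mouse kidney was hybridised by the authors to one-colour Agilent arrays and scanned. Per the file headers, Feature Extraction 9.5.3.1 subtracted background and wrote the deposited intensity of each of 43379 spots, with mm9 positions. The authors also deposited a log2 matrix, of which 18.1% of values are blank. It served as an alternative, and 0 of its columns were left out.

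Here, control spots and spots marked as non-uniform or population outliers were removed, spots of a probe averaged, the intensity divided by the array's 75th percentile, probes of a gene name averaged on the linear scale, and log2 taken. limma 3.58.1 (R 4.3.3) fitted the 5 groups over all 20 arrays (15 residual degrees of freedom). Tested genes had no more than 1 value missing among the arrays compared and were well above background on at least 3 of 4 arrays of either group. Adjusted p-values are by Benjamini-Hochberg over all genes (or probes) tested, called below 0.05. Exact permutation tests were two-sided. Where no array of a group was well above background, a fold is a bound. Values of that group below the array's dimmest probe well above background were raised to it. The bound does not allow for the spread between arrays. A list's summed level is the log2 of the sum of its genes' linear values.

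The members and gene lists were chosen with earlier results of these data known. Named were all members, the 3 names most like each, and list genes called in IRI vs Control with at least a 2-fold difference. Some list genes outside this rule were named as well, such as Tnf, Lta, Tek, Ramp2, Kdr and untested neutrophil markers. Their naming was a choice made with the values known. Alternatives covered background correction, scaling, probe summary, filters, removed spots, the deposited matrix, SAM, the arrays of a comparison alone, a replicate block and each array left out. One more, probes with a value on every array, was added after the data had been seen. The code was tested on simulated data. The number of arrays limits the precision.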

Additional observations from a re-analysis of the deposited data

Results flagged for a closer look

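In the 35 groups of 4 values (7 members in 5 groups), 2 held a value whose gap to its nearest neighbour took up more of the range than Dixon's 95% limit allows. Chance gives about 1 such group in 20. Sele in IRI replicate 3 was -5.84, while the other IRI arrays lay between -3.48 and -3.30 (gap over range 0.929). That array was also the IRI array on which Sele was not well above background. Icam2 in Hemin replicate 4 was 1.77, while the other Hemin arrays lay between 1.32 and 1.36 (gap over range 0.92). The cause of neither was tested.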

How the results depend on the processing

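Signal near background limits Sele and the dim probes of Vcam1, Cd44 and Selp, and the spread of IPC+IRI enters all comparisons through the shared fit. Of the recomputed fold changes of members, 1710 kept direction and call, 47 lost the call, 33 gained it and 40 turned sign. Beside each count of members called, IRI+Hemin vs Control gave 5, but 2 under normexp, 3 without scaling, 3 with the compared arrays alone and 2 by SAM. IRI+Hemin vs IRI gave 3, but 0 without scaling and 0 by SAM, and 2 under normexp, with the mean of log2 values, without the filter and under the strict filter. Hemin vs Control gave 0, but 2 without scaling, 1 in the deposited matrix and 2 with the compared arrays alone. IPC+IRI vs IRI gave 1, but 2 with the brightest probe, and 0 under the strict filter (Sele no longer tested), with the compared arrays alone (Sele, adjusted p = 0.052) and by SAM. By SAM, IPC+IRI vs Control gave 1 in place of 3 and IRI+Hemin vs Hemin 2 in place of 4. The causes were not tested. With each array left out in turn the counts ran from 4 to 5 in IRI vs Control, 1 to 2 in IPC+IRI vs IRI, 3 to 4 in IPC+IRI vs Control, 1 to 4 in IRI+Hemin vs IRI, 0 to 1 in Hemin vs Control, 4 to 5 in IRI+Hemin vs Control and in IRI+Hemin vs Hemin, and 0 to 0 for the interaction.

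Turns of sign were at values that were not called. Without scaling, IPC+IRI vs IRI gave 0.13 for Icam1, 0.20 for Icam2, 0.31 for Selplg and 0.30 for Vcam1, IPC+IRI vs Control gave 0.36 for Selp, IRI+Hemin vs IRI 0.07 for Selplg, Hemin vs Control 0.31 for Cd44, 0.39 for Sele, 0.20 for Selp, 0.13 for Selplg and 0.51 for Vcam1, and the interaction -0.06 for Selplg. Without scaling, the median of all genes was 0.62 in Hemin vs Control (0.06 with it) and 0.41 in IPC+IRI vs IRI (0.09 with it). Normexp gave Sele -0.19 in IPC+IRI vs Control and -0.25 in IRI+Hemin vs Control. Quantile normalization gave Selp 0.19 in IPC+IRI vs Control and Sele 0.09 in Hemin vs Control. The brightest probe gave Selplg 0.02 in IPC+IRI vs IRI and Cd44 0.01 in Hemin vs Control. The mean of log2 values gave Vcam1 0.11 in IPC+IRI vs IRI, Selp 0.31 in IPC+IRI vs Control and 0.14 in Hemin vs Control, Icam1 -0.18 in IRI+Hemin vs IRI and Cd44 0.04 in the interaction. The deposited matrix gave Cd44 -0.30 in IPC+IRI vs IRI, and outlying spots kept gave Vcam1 0.99 in Hemin vs Control. With each array left out in turn, Cd44 in IPC+IRI vs IRI ran from -0.03 to 0.66, Icam1 in IRI+Hemin vs IRI ran from -0.01 to 0.27, Sele in Hemin vs Control ran from -0.52 to 0.02, Sele in IPC+IRI vs Control ran from -0.07 to 0.79, Selp in IPC+IRI vs Control ran from -0.30 to 0.15, Selplg in IPC+IRI vs IRI ran from -0.23 to 0.36, Vcam1 in Hemin vs Control ran from -0.29 to 0.10, Vcam1 in IPC+IRI vs IRI ran from -0.51 to 0.32.

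Arrays of the same replicate number did not deviate together: the correlations of same-numbered arrays ran from -0.277 to 0.176, with at most 1 of 4 pairs over 0.1, so the numbers were not taken to pair the samples. With the replicate block the counts of members called were 4, 1, 3, 3, 0, 5 and 4 in the comparisons in the order of IRI vs Control, IPC+IRI vs IRI, IPC+IRI vs Control, IRI+Hemin vs IRI, Hemin vs Control, IRI+Hemin vs Control and IRI+Hemin vs Hemin, and 0 for the interaction. The slide as a random block was not run, since each slide holds 1 group, and SAM was not run for the interaction. With the added choice, probes with a value on every array, Vcam1 passed in IRI+Hemin vs IRI (-0.99, adjusted p = 0.0185).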
